A study of Homo sapiens with 9 samples.

Results

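Mucins coat and protect the airway surface, and the 10 human mucin genes described here were chosen by name: MUC2, MUC5AC, MUC5B and MUC6, whose products are secreted and form gels, and MUC1, MUC4, MUC13, MUC15, MUC16 and MUC20, whose products are membrane-bound. They are 10 of the 20136 protein-coding genes of GENCODE 44 mapped to GRCh37. The rule names genes and uses no threshold on measured values, although earlier results of these data were known when it was set. Islands of 4 histone marks were read over each gene body with the 5 kb upstream, and over the stretch of chromosome 11 that holds the 4 gel-forming genes.

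Gel-forming mucins are long glycoproteins that are joined end to end into polymers, and MUC5AC and MUC5B are the main ones of airway mucus. Membrane-bound mucins stay on the cell surface, where MUC1 and MUC4 take part in signalling and MUC16 carries the CA125 antigen. Many mucin genes, though not all, hold long tandem repeats that code for stretches rich in serine and threonine, which carry the O-linked sugars. H3K9me3 marks heterochromatin, H3K27me3 marks genes repressed by Polycomb complexes, H3K4me3 marks active promoters, and H3R8me2a is dimethylation of an arginine of the same histone.

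The KO cells were BEAS-2B cells, a bronchial epithelial line immortalized with a virus, that lost mdig, a JmjC domain protein, after CRISPR-Cas9 editing and blasticidin selection. The WT cells were colonies from the same selection that still made mdig, so both groups had met the vector and the drug. Each of the 4 marks had 1 KO library and 1 WT library, and an input of WT cells has no islands here. Values are therefore lengths without replicates, with no error and no test. An island is a stretch of enriched reads given by a start and an end, on a grid of 200 bases, without height or read number, so the depth is unknown. In a bulk library, more cells carrying a mark and more mark per cell cannot be told apart, and neither can a longer mark and more permissive calling.

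Total island length in the genome was 195 Mb in KO against 52.8 Mb in WT for H3K9me3, 342 Mb against 256 Mb for H3K27me3, 102 Mb against 88.8 Mb for H3K4me3, and 100.4 Mb against 62.3 Mb for H3R8me2a. Of 16 epithelial markers, 9 had an H3K4me3 island within 2 kb of their start in KO and 9 in WT, against 64.4% and 64.7% of all protein-coding genes, so the count does not set the cells apart as epithelial. CDH1, EPCAM, KRT8 and KRT18 were among the 9, while KRT5, KRT14 and TP63 had none in either. The counts were 8 and 8 of 10 for mesenchymal markers, 4 in KO and 5 in WT of 7 for ciliated cell markers, 2 and 2 of 8 for leukocyte markers, and 1 in KO and 2 in WT of the 5 endothelial markers found. The leukocyte-defining PTPRC had none in either library.

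H3K9me3 covered more of 6 mucin genes in KO than in WT, and less of none. A gene met the gain rule if its covered length was 2 or more times longer in KO than in WT and the difference reached 1 kb, and it met the loss rule in the reverse case. By this rule of size, 6 of the 10 mucin genes gained H3K9me3 in KO, namely MUC2, MUC4, MUC5AC, MUC5B, MUC6 and MUC16, and none had a loss. Of these, MUC2, MUC5AC, MUC5B and MUC6 are neighbours in the same cluster, so their gains are not independent. Over all protein-coding genes, 27.6% met the gain rule and 0.874% the loss rule. Among the 15569 genes within the mucin genes' range of region length the gain share was 26.0%, and among the 1317 genes of chromosome 11 it was 25.7%. The 4 genes without a gain, MUC1, MUC13, MUC15 and MUC20, had no H3K9me3 island in either library. The KO H3K9me3 library covered 3.69 times the length of the WT one over the whole genome. With KO lengths multiplied down to the WT total, only MUC16 kept its gain, at 24.2 kb in KO against 8.8 kb in WT, and MUC2, MUC4 and MUC5AC came out shorter in KO than in WT. Under that scaling 13.4% of all genes had a gain.

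H3K27me3 was longer in KO at 5 genes and shorter at 2, MUC4 and MUC20, but by less than the rule asks. For this mark 0 genes met the gain rule and 0 the loss rule, against 6.49% and 3.29% of all genes. For H3K4me3 the counts were again 0 and 0, against 4.10% and 2.04%. For H3R8me2a, MUC5AC, MUC5B and MUC6 had a gain and none had a loss, against 20.0% and 8.04% of all genes and a gain share of 21.6% in the range of region length. All 3 of these are neighbours in 1 cluster, so they are not independent. The median difference over the 10 genes, KO minus WT, was 14.6 kb for H3K9me3 and 0.501 kb for H3K27me3, and over all protein-coding genes it was 0 for each mark.

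**Figure D1:**
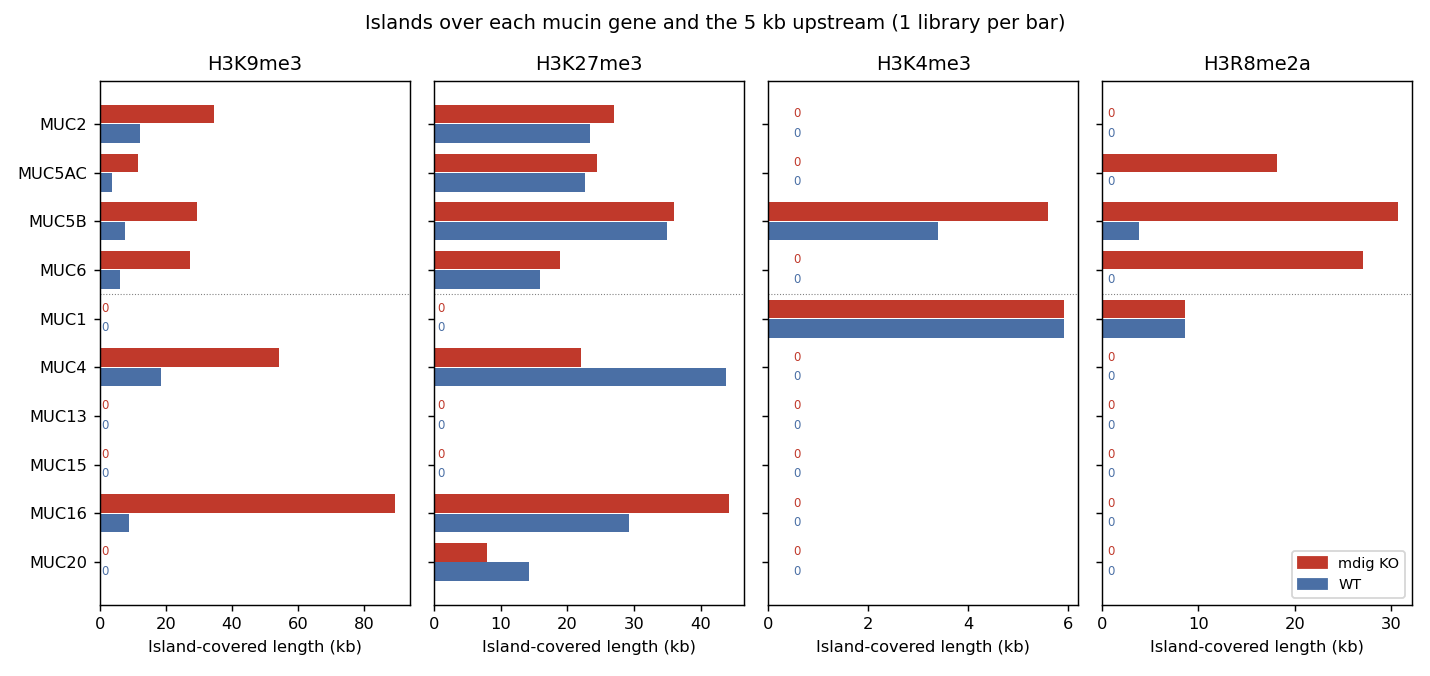
Length covered by islands (kb) over each mucin gene with the 5 kb upstream, in KO (red, upper bar) and WT (blue, lower bar), for the 4 marks, with 1 library per bar and a 0 where there was no island. The dotted line parts the gel-forming genes from the membrane-bound ones. Without scaling, H3K9me3 bars are longer in KO at 6 genes, from 11.6 kb against 3.6 kb at MUC5AC to 89.5 kb against 8.8 kb at MUC16.

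The 4 gel-forming genes lie together on chromosome 11 in GRCh37. MUC6, a mucin of stomach and gland secretions, spans chr11:1012823-1036718 on the minus strand, and MUC2, the main intestinal mucin, spans chr11:1074875-1104416 on the plus strand. MUC5AC, a mucin of airway goblet cells, spans chr11:1151580-1222364, and MUC5B, a mucin of airway glands and secretory cells, spans chr11:1244296-1283402, both on the plus strand. The 200 bases upstream of the MUC2 start, at chr11:1074675-1074874, are shown because they lay wholly under H3K9me3 in KO and under no island in WT. They are read 5′ to 3′ on the gene's strand, with each CG dinucleotide in capitals.

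MUC2 upstream: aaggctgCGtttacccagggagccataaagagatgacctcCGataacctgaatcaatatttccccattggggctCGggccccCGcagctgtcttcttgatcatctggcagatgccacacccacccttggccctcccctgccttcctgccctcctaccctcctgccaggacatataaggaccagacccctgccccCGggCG

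This window holds 6 CG dinucleotides, against a median of 12 over 20132 protein-coding genes. The letters TATAA, searched on both strands, occur in it and in 14.0% of all windows.

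MUC6 had 1 H3K9me3 island in KO, from 1007801 to 1040000, which covered 27.2 kb of its region, against 1 island from 1013001 to 1019000 in WT, which covered 6 kb. The WT island sat at the 3′ end of the gene, and in KO the mark reached past the start of the gene. H3K27me3 over MUC6 was 18.9 kb in KO and 15.9 kb in WT, and the first base of that mark lay at 1022801 in KO and 1025001 in WT. In WT the marks H3K9me3 and H3K27me3 therefore shared 0 kb of MUC6, whereas in KO they shared 17.2 kb. H3R8me2a covered 27.1 kb of MUC6 in KO as 3 islands and 0 kb in WT.

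MUC2 lay wholly under a single H3K9me3 island of 39.2 kb in KO, from 1069601 to 1108800, so all 34.5 kb of its region were covered. In WT the mark covered 12.2 kb in the middle of the gene, as 2 islands from 1084201 to 1091000 and from 1092201 to 1097600. H3K27me3 was close in the libraries, with 26.9 kb in KO and 23.3 kb in WT, and both left bare the 7.6 kb from 1072001 to 1079600, which holds the MUC2 start. That bare stretch took on H3K9me3 in KO. MUC2 had no H3K4me3 or H3R8me2a island in either library.

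MUC5AC is only partly readable here, since 50 kb of it, from 1162760 to 1212759, are unknown bases in this build, and H3K9me3 and H3K27me3 islands end or begin within 200 bases of that run. Of the 25.8 kb of known bases in its region, H3K9me3 covered 11.6 kb in KO against 3.6 kb in WT. All of it lay inside the gene, and the nearest H3K9me3 island was 6.78 kb from the MUC5AC start in KO and 53.98 kb from it in WT. H3K27me3 covered 24.4 kb in KO and 22.6 kb in WT, nearly all known bases in both. H3R8me2a covered 18.2 kb in KO and 0 kb in WT, and 1 of the 2 KO islands, from 1140401 to 1159800, lay over the start.

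MUC5B had 29.5 kb of H3K9me3 in KO as 4 islands, against 7.6 kb in WT as 2 islands. One of the KO islands, from 1237001 to 1245600, lay over the MUC5B start, where WT had none within 22.7 kb. H3K27me3 covered 35.9 kb in KO and 34.9 kb in WT, including the start in both, and it left bare the middle of the gene from 1264201 to 1272400 in KO and from 1264001 in WT. H3R8me2a covered 30.7 kb in KO against 3.8 kb in WT, and a KO island of 25.8 kb from 1238201 to 1264000 was new at the start of the gene. At the 3′ end MUC5B carried the only H3K4me3 of the cluster, from 1277801 to 1286000 in KO and from 1280001 to 1284800 in WT, with 5.6 kb and 3.4 kb of these inside the gene. H3R8me2a had an island at the same end in both libraries, from 1277401 to 1286000 in KO and from 1279601 to 1287000 in WT. Starts of other annotated MUC5B transcripts lie there, so MUC5B counts as marked in both libraries when any annotated start is taken in place of the gene start. MUC5B-AS1, an antisense RNA gene inside MUC5B, had 9.62 kb of H3K9me3 in KO and 7.51 kb in WT, and ChIP-seq islands carry no strand that could part it from MUC5B.

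Over the whole cluster of 270.6 kb, of which 220.6 kb are known bases, H3K9me3 covered 147 kb in KO and 29.4 kb in WT, or 66.6% and 13.3% of the known bases. It came as 12 islands with a median of 9.7 kb in KO and as 6 islands with a median of 5.2 kb in WT. Each of the 6 WT islands lay inside a KO island, so that 100% of the WT bases kept the mark. H3K27me3 covered 175 kb in KO and 155 kb in WT, and 99.9% of the WT bases kept it. H3R8me2a covered 102 kb in KO and 3.8 kb in WT, with 8 islands against 1. H3K4me3 covered 5.6 kb in KO and 3.4 kb in WT. With KO lengths scaled to the WT total, the cluster held 39.8 kb of H3K9me3 in KO against 29.4 kb in WT and 63.4 kb of H3R8me2a in KO against 3.8 kb in WT, while H3K27me3 turned round, with 131 kb in KO against 155 kb in WT.

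Over the cluster, H3K9me3 that was new in KO fell on and off WT H3K27me3 in about the proportions in which the bases were there. Of 118 kb of new H3K9me3 in the cluster, 86.8 kb, or 73.8%, lay on bases that carried H3K27me3 in WT, and 72.0% of all known bases free of WT H3K9me3 carried it. Bases under both marks amounted to 117 kb in KO and 17 kb in WT, and bases under neither made up 7.16% of the known bases in KO and 24.3% in WT. Of the new H3K9me3, 52.8 kb coincided with new H3R8me2a. By gene, the share of new H3K9me3 on WT H3K27me3 was 97.5% in MUC5AC, 89.0% in MUC5B, 69.9% in MUC6 and 60.6% in MUC2. The share of WT H3K27me3 over the bases free of WT H3K9me3 was 85.5%, 85.8%, 69.5% and 60.6% in the same genes in that order. For MUC2, which is wholly covered in KO, both shares are equal by construction. For MUC6 they are nearly fixed too, since new H3K9me3 filled 21.2 kb of the 22.9 kb free of WT H3K9me3. The islands come from separate libraries of many cells, so they do not show whether both marks sat on the same molecules.

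**Figure D2:**
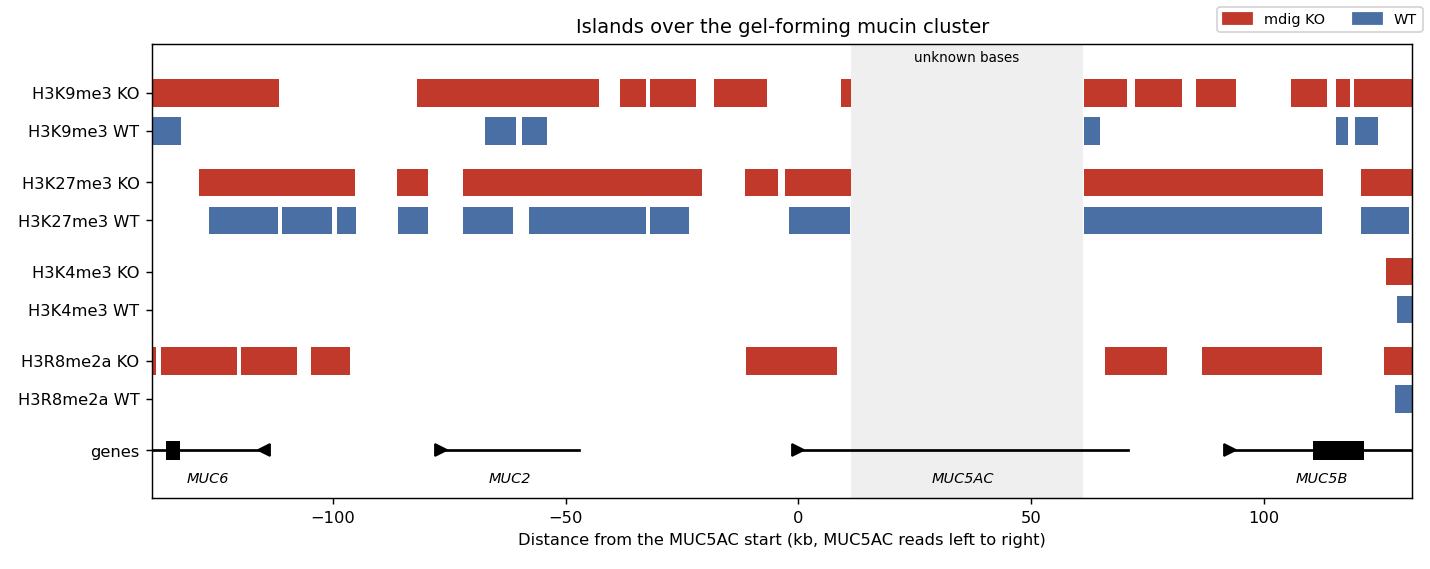
Islands of the 4 marks in KO (red, upper row of each pair) and WT (blue, lower row) over the gel-forming mucin cluster, by distance from the MUC5AC start in kb. Arrowheads mark gene starts, thick bars the long coding exons of MUC6 and MUC5B, and the grey band the 50 kb of unknown bases. H3K9me3 rows show 12 islands in KO and 6 in WT, and H3R8me2a rows show 8 in KO and 1 in WT.

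The longer H3K9me3 of KO went on past both ends of the cluster, and the longer H3R8me2a past the lower end only. In the 100 kb below MUC6, toward lower coordinates, H3K9me3 covered 15.4 kb in KO and 4.4 kb in WT, and H3R8me2a 41 kb in KO and 0 kb in WT, with no H3K27me3 in either. In the 100 kb above MUC5B, H3K9me3 covered 56.2 kb in KO and 0 kb in WT, and H3R8me2a 2.6 kb in KO and 3.6 kb in WT. H3K27me3 there covered 51.4 kb in KO and 49.8 kb in WT. Chromosome 11 as a whole had 6.71 times the H3K9me3 length in KO and 2.99 times the H3R8me2a length, whereas the cluster had 5.00 times and 26.9 times. AP2A2, an adaptor subunit of clathrin-coated vesicles that lies below MUC6, had 14.8 kb of H3K9me3 and 34.8 kb of H3R8me2a in KO against 4.4 kb and 0 kb in WT, with H3K4me3 at its promoter in both. TOLLIP, an inhibitor of Toll-like receptor signalling that lies above MUC5B, had 19.6 kb of H3K9me3 in KO and 0 kb in WT, and it too kept H3K4me3 at its promoter. CHID1, a chitinase-like gene beyond AP2A2, had no H3K9me3 or H3K27me3 in either library, 47.9 kb of H3R8me2a in KO and 24.7 kb in WT, and H3K4me3 on 0 bases of its promoter in KO and 743 in WT. No H3K4me3 island lay within 2 kb of the start of any of the 4 gel-forming genes in either library.

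MUC16, the longest of the 10 genes, had the largest H3K9me3 difference among them. It spans chr19:8959520-9121066 on the minus strand, and its difference ranked 85th of 20136 protein-coding genes, an order that favours long genes. H3K9me3 covered 89.5 kb in KO as 13 islands and 8.8 kb in WT as 2 islands, a ratio of 10.2. The WT islands ran from 8997401 to 9001200 and from 9072201 to 9077200, and 90.9% of their bases kept the mark in KO. Around the start of MUC16, KO had an island from 9116601 to 9121600, while the nearest one in WT was 43.9 kb away. H3K27me3 covered 44.3 kb in KO and 29.3 kb in WT, below the factor of the rule, and lay over the start in both. Of the new H3K9me3 of MUC16, 17.9% lay on WT H3K27me3 and 66.9 kb lay off that mark, where 18.6% of the bases free of WT H3K9me3 carried WT H3K27me3. Bases with neither mark made up 29.8% of the MUC16 region in KO and 77.1% in WT. MUC16 had no H3K4me3 or H3R8me2a island in either library.

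**Figure D3:**
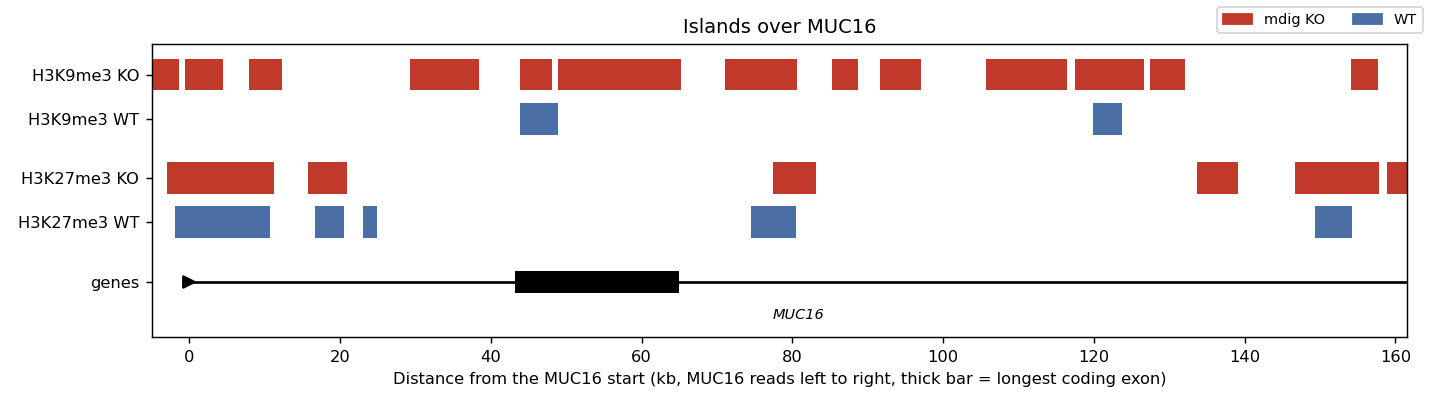
Islands of H3K9me3 and H3K27me3 over MUC16 and the 5 kb upstream in KO (red, upper row of each pair) and WT (blue, lower row), by distance from the MUC16 start in kb. The arrowhead is the start and the thick bar the longest coding exon of 21.7 kb. H3K9me3 forms 13 islands in KO and 2 in WT, and the long exon has H3K9me3 and no H3K27me3 in both.

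MUC4, a large mucin that binds the receptor ERBB2, spans chr3:195473636-195538844 on the minus strand and had more H3K9me3 and less H3K27me3 in KO, although with KO scaled to the WT total both were shorter, at 14.7 kb in KO against 18.6 kb in WT for H3K9me3 and 16.5 kb in KO against 43.8 kb in WT for H3K27me3. Unscaled, H3K9me3 covered 54.2 kb in KO as 4 islands and 18.6 kb in WT as 3 islands. H3K27me3 covered 22.0 kb in KO and 43.8 kb in WT, a WT to KO ratio of 1.99 that stays just under the factor of 2, and only 47.0% of the WT bases kept it. Of the new H3K9me3 of MUC4, 73.6% lay on WT H3K27me3, a mark on 61.5% of the bases free of WT H3K9me3. The clearest exchange was at the start. In WT an H3K27me3 island ran from 195526001 to 195542600 over the MUC4 start, and in KO no H3K27me3 lay within 36.6 kb of it. An H3K9me3 island from 195527401 to 195542600 covered the start in KO, ending on the same base as the WT H3K27me3 island, while the nearest WT H3K9me3 was 25.0 kb away. Taking the 5 kb on both sides of the start, or joining islands within 1 kb, MUC4 met the loss rule for H3K27me3. The 200 bases upstream of the start, at chr3:195538845-195539044, lay wholly under H3K9me3 in KO and wholly under H3K27me3 in WT, and they hold 6 CG dinucleotides.

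MUC4 upstream: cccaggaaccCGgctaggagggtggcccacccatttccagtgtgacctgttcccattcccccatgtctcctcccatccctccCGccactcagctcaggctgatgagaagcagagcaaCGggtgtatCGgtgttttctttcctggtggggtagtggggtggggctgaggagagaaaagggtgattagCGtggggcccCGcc

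MUC20, a membrane-bound mucin known from kidney, lies beside MUC4 at chr3:195447755-195467994 on the plus strand. An H3K27me3 island that spans both genes ran from 195460001 to 195476200 in KO and from 195453801 to 195494200 in WT. It covered 7.99 kb of MUC20 in KO and 14.2 kb in WT, a difference under the factor of 2 that met the loss rule once KO was scaled to the WT total. The KO island began further inside MUC20, so the distance from the MUC20 start to the nearest H3K27me3 was 12.2 kb in KO and 6.05 kb in WT. MUC20 had no island of any other mark in either library. It has near-identical copies close by on the same chromosome, so the placement of its reads is uncertain. Within 100 kb, TNK2, a tyrosine kinase, had 4.8 kb of H3K9me3 in KO and 0 kb in WT, and 0 kb of H3K27me3 in KO and 1.82 kb in WT, with H3K4me3 at its promoter in both. The only other protein-coding gene counted there, annotated as ENSG00000289747, had H3K4me3 at its promoter in both libraries and no H3K9me3 or H3K27me3 in either.

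**Figure D4:**
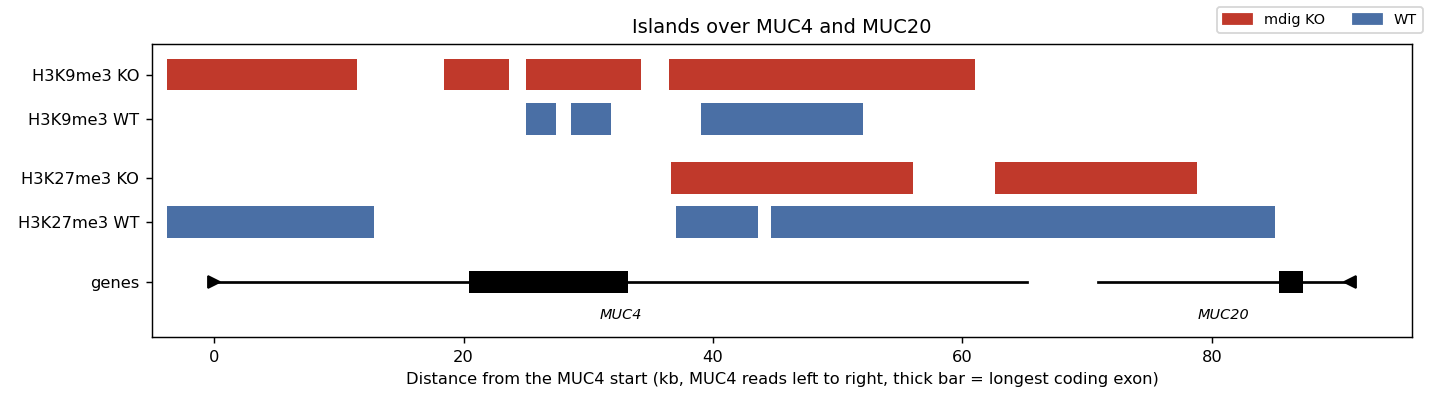
Islands of H3K9me3 and H3K27me3 over MUC4 and MUC20 with the 5 kb upstream of each, in KO (red, upper row of each pair) and WT (blue, lower row), by distance from the MUC4 start in kb. Arrowheads are gene starts and thick bars the longest coding exons. At the MUC4 start KO shows an H3K9me3 island of 15.2 kb and WT an H3K27me3 island of 16.6 kb.

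MUC1, a membrane mucin of most simple epithelia, was the only member with H3K4me3 within 2 kb of the gene start, in KO and in WT, whereas 64.4% of all protein-coding genes had such an island in KO and 64.7% in WT. The gene spans chr1:155158300-155162707 on the minus strand. The H3K4me3 island ran from 155161801 to 155168600 in KO and from 155161801 to 155168200 in WT, and its overlap with the MUC1 region was 5.91 kb in both. H3R8me2a covered 8.61 kb in both libraries. There was no H3K9me3 or H3K27me3 island, the nearest H3K9me3 lying 22.5 kb from the start in KO and 278 kb in WT. The 200 bases upstream, at chr1:155162708-155162907, hold 10 CG dinucleotides and the letters TATAA, and the letters GGGCGG, searched on both strands, which occur in 46.5% of all windows.

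MUC1 upstream: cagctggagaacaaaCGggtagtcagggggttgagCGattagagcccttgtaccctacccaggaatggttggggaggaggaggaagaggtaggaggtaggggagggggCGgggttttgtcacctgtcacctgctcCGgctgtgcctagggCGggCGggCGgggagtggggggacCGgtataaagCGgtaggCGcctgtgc

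Both H3R8me2a libraries broke off over the same 800 bases of MUC1, from 155161001 to 155161800, and H3K4me3 of both libraries ended at its edge. These bases hold the tandem repeat of MUC1, and 239 of them lie in an annotated exon of this build. Inside the gap 88.6% of bases equalled the base 60 positions away, against 28.9% in the next 800 bases on one side and 30.1% on the other. The most frequent 60-base stretch occurred 8 times in the gap. It is shown once, at chr1:155161695-155161754 and read on the minus strand, with CG in capitals. It was chosen because its copies lie in the gap that the H3R8me2a island edges of both libraries bound. Reads from identical copies cannot be placed uniquely, and their part in the gap was not tested.

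MUC1 repeat: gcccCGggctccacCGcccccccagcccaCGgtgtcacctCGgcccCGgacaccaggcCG

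**Figure D5:**
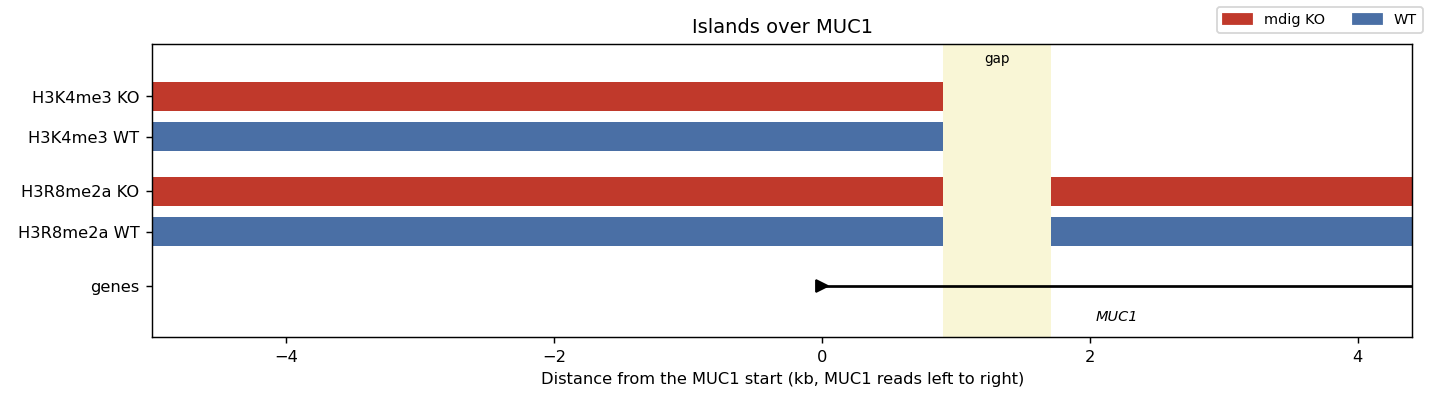
Islands of H3K4me3 and H3R8me2a over MUC1 and the 5 kb upstream in KO (red, upper row of each pair) and WT (blue, lower row), by distance from the MUC1 start in kb. The arrowhead is the gene start and the yellow band the gap of 800 bases. The rows of KO and WT are equal in this window, with 5.91 kb of H3K4me3 and 8.61 kb of H3R8me2a in each.

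Genes around MUC1 mostly carried H3K4me3 as well. Of 16 protein-coding genes within 100 kb, 14 had H3K4me3 at the promoter in KO and 14 in WT, against 64.4% and 64.7% of all protein-coding genes. H3R8me2a lay at 15 of these promoters in each library, and its share over all genes was not computed. Some of the 16 overlap each other, so they are not independent. One of the 16, PKLR, the pyruvate kinase of liver and red cells, met the H3K9me3 gain rule, as did 27.6% of all genes, with 4.8 kb in KO and 0 kb in WT. PKLR and DPM3, a subunit of the dolichol-phosphate mannose synthase, met the loss rule for H3R8me2a, as did 8.04% of all genes. They had 0.429 kb and 1.83 kb in KO against 3.43 kb and 5.71 kb in WT. DPM3 met the gain rule for H3K4me3, as did 4.10% of all genes, at 3.43 kb in KO and 1.43 kb in WT.

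MUC13, a membrane mucin of the gut at chr3:124624289-124672663, and MUC15, a membrane mucin known from the milk fat globule of cows, at chr11:26580579-26593810, had no island of any of the 4 marks in either library. From the MUC13 start, the nearest H3K9me3 lay 78.3 kb away in KO and 80.3 kb in WT, and the nearest H3K27me3 227 kb in KO and 807 kb in WT. For MUC15, the nearest H3K27me3 lay 17.4 kb away in KO and 21.0 kb in WT, and the nearest H3K9me3 82.2 kb in KO and 251 kb in WT. Both genes thus lacked H3K4me3 and both repressive marks at once. They have 4 and 3 CG dinucleotides in the 200 bases upstream, against the median of 12 over protein-coding genes.

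In WT, H3K9me3 took a larger share of the longest coding exon than of the whole region in MUC4, MUC5B, MUC6 and MUC16. The same held in MUC2, at 57.4% against 35.3%, but not in MUC5AC, at 0% against 14.0% of the known bases of its region. The longest coding exons of MUC2 and MUC5AC have only 284 and 262 bases and are left out below. In MUC4, exon 2 of 12.7 kb at chr3:195505661-195518368 was 89.0% covered by H3K9me3 in KO and 44.1% in WT. In MUC5B, exon 31 of 10.9 kb at chr11:1262081-1272973 was 74.3% covered in KO and 42.0% in WT. In MUC6, exon 31 of 3.01 kb at chr11:1015762-1018770 was 100% covered in both. In MUC16, exon 3 of 21.7 kb at chr19:9056173-9077865 was 93.2% covered in KO and 23.05% in WT. In WT these exons held 30.1% of the H3K9me3 bases of MUC4, 60.2% of MUC5B, 50.2% of MUC6 and 56.8% of MUC16, while the exons made up 18.1%, 24.7%, 10.4% and 13.0% of the regions of these genes in the same order. In KO the exons held 20.9%, 27.4%, 11.1% and 22.6% of the H3K9me3 bases in that order, closer to those shares. In KO the mark covered 77.2%, 66.9%, 94.1% and 53.7% of the regions in that order. As coverage nears a whole region, the shares must meet. H3K27me3 left the exons of MUC4, MUC6 and MUC16 free in both libraries, and it covered 24.7% of the MUC5B exon in KO and 22.9% in WT.

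These exons are repetitive to unequal degrees. In MUC4 exon 2, 73.9% of the bases equalled the base 48 positions away, while the best of the periods searched gave 57.4% in MUC6, 46.7% in MUC5B and 30.2% in MUC16. One 48-base stretch recurs exactly 14 times in the MUC4 exon and is shown at chr3:195514906-195514953, read on the minus strand, as the unit of the most regular of them. It holds no CG. The gap in KO H3K9me3 from 195513801 to 195515200 lies over the copy shown. Where the other copies fall was not examined, and H3K9me3 covered 89.0% of the exon in KO. How far repeated sequence changes the calling of islands was not tested.

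MUC4 repeat: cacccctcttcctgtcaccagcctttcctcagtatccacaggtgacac

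Other genes with mucin names were treated in the same way. Of 12, 6 had a gain of H3K9me3, against 27.6% of all genes, with the largest in MUC12, a membrane mucin of the colon, at 21.2 kb in KO and 0 kb in WT. The others with a gain were MUC3A, MUC17, MUC21, MUC22 and MUCL3. Whether these genes are neighbours was not examined, so their gains may not be independent. None of the 12 had a gain of H3K27me3, against 6.49% of all genes, and MUCL1 had a loss, at 3.6 kb in KO and 9.6 kb in WT, against 3.29%. For H3R8me2a, 0 of the 12 had a gain and 0 a loss, against 20.0% and 8.04% of all genes. MCAM, an adhesion molecule once called MUC18, was the only one of them with H3K4me3 at its promoter, in both libraries.

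Among 22 enzymes that build O-linked sugars on mucins, 11 had a gain of H3K9me3 and 1 a loss, against 27.6% and 0.874% of all genes. The largest gain was in ST3GAL1, a sialyltransferase, at 21.2 kb in KO and 4.2 kb in WT, and the loss was in GALNT1, which adds the first sugar, at 2 kb in KO and 5.6 kb in WT. For H3K27me3 there were 2 gains and 1 loss, against 6.49% and 3.29% of all genes, namely 24.4 kb in KO and 0 kb in WT in GALNT12, another enzyme that adds the first sugar, as the larger gain, and 0 kb in KO and 4.79 kb in WT in B3GNT3, which extends the sugar chain. B3GNT3 also had the only H3K4me3 gain of the 22, against 4.10% of all genes, at 2.2 kb in KO and 0 kb in WT. The promoter carried H3K4me3 in 14 of the 22 in KO and 13 in WT, near the 64.4% and 64.7% of all genes. For H3R8me2a there were 4 gains, a share near the 20.0% of all genes, and 0 losses, with the largest gain in ST3GAL4, a sialyltransferase, at 36.0 kb in KO and 0 kb in WT.

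Of 22 genes of mucous secretory cells, 12 had a gain of H3K9me3 and 0 a loss, against 27.6% and 0.874% of all genes. ANO1, a calcium-activated chloride channel, had the largest gain, at 65.8 kb in KO and 5.4 kb in WT. The H3K27me3 counts were 1 gain, in LTF, which encodes lactoferrin, at 4.8 kb in KO and 2.2 kb in WT, and 0 losses, where all genes had 6.49% and 3.29%. In this list 14 had H3K27me3 at the promoter in KO and 14 in WT. The share of all genes with promoter H3K27me3 was not computed, so these counts have no background. H3R8me2a had 6 gains and 0 losses, against 20.0% and 8.04% of all genes, with the largest gain in BPIFB1, a secreted protein of airway glands, at 37.1 kb in KO and 0 kb in WT. SPDEF, a transcription factor of goblet cells, had 20.9 kb of H3R8me2a in KO and 0 kb in WT, and no island of H3K9me3, H3K27me3 or H3K4me3 in either. H3K4me3 lay at the promoters of 4 of the 22 in both libraries, against 64.4% of all genes in KO and 64.7% in WT, namely FOXA1, FOXA3, CREB3L1 and SLC26A4, of which the first 3 encode transcription factors and the last an anion exchanger. FOXA1 met the H3K4me3 loss rule, as did 2.04% of all genes, with 3.2 kb in KO and 9.44 kb in WT, although 3200 bases within 2 kb of its start were covered in KO and 2737 in WT.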

How the data were processed

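The authors aligned reads to hg19 with BWA (version not given in the sources used here), equalised tag numbers within a comparison by random sampling, and, per the labels, called islands with SICER 1.1 in each library separately. The deposited islands hold only positions and no height, so the depth per sample is unknown and no interval can be given. The labels and the paper give different cell numbers for the immunoprecipitation.

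Samples were grouped by mark and genotype from their titles. Island starts and ends were placed on GENCODE 44 genes in GRCh37, and covered bases were summed over body and 5 kb upstream with Python 3.11.15 and numpy 2.4.6. Overlaps needed 1 base and were checked with bedtools 2.31.1, and the rule of size was tested on simulated data. Sequences were read from GRCh37 with pysam 0.24.0, and figures were drawn with matplotlib 3.10.9. Named genes are the 10 members, AP2A2, TOLLIP, genes within 100 kb of MUC1, MUC4 and MUC20, the largest difference per mark of each other list, and up to 4 secretory genes with promoter H3K4me3. SPDEF, MCAM, MUC5B-AS1 and the markers named were picked after their values were seen. Members and lists were chosen with earlier results of these data known. Alternatives were a factor of 1.5, other gene windows, scaling, an island minimum of 1 kb and merging within 1 kb. The input and RNA were not analysed here, and some upstream sequences are not reported here.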

Additional observations from a re-analysis of the deposited data

How the results depend on the processing

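Of 52 alternative values, 40 kept their direction and stayed within 1.5 times the value given, 11 moved further and 1 turned round. Scaling KO to the WT total left 1 H3K9me3 gain (MUC16) in place of 6, made 2 H3K27me3 losses (MUC4, MUC20) in place of 0, against 3.95% of all genes, and changed the KO minus WT length over the cluster to 10.4 kb for H3K9me3, 59.6 kb for H3R8me2a and -23.2 kb for H3K27me3, in place of 118 kb, 98.4 kb and 20.6 kb. Scaling assumes equal totals, which these data cannot check. A factor of 1.5 called 3 genes for H3K27me3 (MUC16 gain, MUC4 and MUC20 losses) and 1 for H3K4me3 (MUC5B gain), in place of 0 each. The share of all genes called at that factor was not computed. The 5 kb on both sides of the start called 1 gene for H3K27me3, against losses in 2.32% of all genes, and so did joining islands within 1 kb, MUC4 each time. For joining, no share over all genes was computed. The window of 5 kb on both sides of the start ended the H3K9me3 gain of MUC5AC, leaving 5 in place of 6, against 11.8% of all genes. Widening the cluster by 50 kb on both sides gave an H3K4me3 difference of 6.6 kb in place of 2.2 kb. With any annotated transcript start, 2 members had promoter H3K4me3 in KO and 2 in WT. The 3 H3R8me2a gains were called under all 7 alternatives, and under scaling 16.2% of all genes had such a gain. No paired analysis was possible because there was 1 library per mark and genotype. Island ends without height or depth give no counting error, and the 50 kb of unknown bases in MUC5AC and repeats limit what could be covered.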

Other observations

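Of 2 genes within 100 kb of MUC13, both had a gain of H3R8me2a, against 20.0% of all protein-coding genes. HEG1, a mucin-like membrane protein of endothelium, had 35.6 kb in KO and 17.0 kb in WT, and ITGB5, an integrin subunit, had 30.4 kb in KO and 10.2 kb in WT. MUC15 lies inside ANO3, a gene of the anoctamin family, which had 57.2 kb of H3K27me3 in KO and 28 kb in WT over its much longer region. Beside MUC16, 2 of 4 genes had a gain of H3K9me3, against 27.6% of all protein-coding genes, namely MBD3L1, with 2.75 kb in KO and 0 kb in WT, and OR1M1, with 2.35 kb in KO and 0 kb in WT. The zinc finger gene ZNF558 had 23.96 kb of H3K9me3 in KO and 15.96 kb in WT, which is no gain by the rule, and the olfactory receptor genes OR1M1 and OR7G2 had H3K27me3 over their promoters in both libraries. LINC02688, a long noncoding RNA gene between MUC6 and MUC2, had 10.9 kb of H3K27me3 in KO and 9.87 kb in WT, no H3K9me3 in either, and 8.2 kb of H3R8me2a in KO against 0 kb in WT. These genes were picked after their values were seen.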
